A study of Mus musculus with 12 samples.

Results

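The genes described here are 34 genes of cholesterol synthesis and sterol regulation, taken from a table of 27131 genes measured in mouse brain. They comprise the enzymes of the mevalonate pathway and of sterol synthesis, the regulators around the SREBP transcription factors, and genes of sterol transport, storage and turnover. A listed gene was kept when its mean over the 12 libraries was at least 0.5 FPKM, and all 34 listed genes met that limit, as did 16203 genes of the whole table. FPKM corrects the number of sequenced fragments for the length of the transcript and for how many fragments of that library were mapped. The lowest member was Nr1h3 at a mean of 0.782 FPKM, and no listed gene lay below the limit. The genes were chosen with it already known that cholesterol synthesis genes ranked above WT in both knockout strains, so their differences from WT are given here as a description.

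Brain RNA came from 12 mice aged 6 weeks on a C57BL/6J background. WT mice carried no mutation, and the Old and New groups were Plat-/- mice of 2 independent strains, with 4 mice in each of the 3 groups. Plat encodes a secreted protease, tissue-type plasminogen activator, and the labels name no treatment before euthanasia. Per the labels' protocols the WT mice were bought from a supplier and no such purchase is stated for the knockout mice, so the origin of the animals and the genotype cannot be told apart in any comparison with WT. Which exons each Plat mutation affects is not stated in the labels. Plat itself stood at 8.43 ± 1.24 FPKM in WT, 1.76 ± 0.296 in Old and 2.88 ± 0.182 in New (SD, n = 4 each), with every knockout library below every WT library.

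The tissue label is cerebral cortex, whereas the dissection protocol describes whole brain without olfactory bulb and cerebellum. Markers of cortical projection neurons were present (6 of 6, summing to 84.5 to 106.5 FPKM per library), and so were 5 of 6 listed markers of striatal neurons (131.9 to 179.8 FPKM). Libraries WT 4 and Old 1 differed from the other 10 across the transcriptome. Their Spearman correlation with each other over the tested genes was 0.964, against 0.921 to 0.939 with the other 10. Read depth is unknown, because FPKM holds no counts, so the precision of every value below rests on the spread between 4 mice.

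Cells build cholesterol from acetyl-CoA: the mevalonate steps make isoprenoid units, these are joined into squalene, and squalene is closed into lanosterol and trimmed to cholesterol. The process is governed by feedback, in which sterol-poor membranes let Scap carry SREBP proteins to the Golgi for activation and sterol-rich membranes keep them back through Insig proteins. Brain makes its own cholesterol, since lipoproteins of the blood hardly cross the blood-brain barrier. Oligodendrocytes use much of it for myelin, astrocytes pass it on in particles that carry apolipoprotein E, and neurons turn excess into a hydroxylated form that can leave the brain.

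Promoter sequence was examined because the enzymes are known as shared targets of SREBP, which acts at promoters beside the factors NF-Y and Sp1. RefSeq (GRCm38.p6, the build of the deposited values) gave a promoter entry of 250 bases before to 50 bases after the start for 28 of the 34 members. Fdps, Fdft1, Sqle, Abcg1, Stard4 and Npc1 had no entry. The classic sterol regulatory element was searched as TCACNCCAC on both strands. It was found in 1 of 28 members, Hmgcs1, and in 1.44% of 27025 genes with an entry. Some genes have several entries, and a gene was counted when any of them held the motif. The CCAAT box bound by NF-Y was searched as CCAAT on both strands. It was found in 15 of 16 enzymes with an entry (93.8%) and in 22 of 28 members. The shares were 41.1% of all genes with an entry and 42.8% of 9880 tested ones. For Dhcr7 the CCAAT box lay only in an entry that begins at 143829964, and not in the entry that covers its GENCODE start. The CCAAT boxes counted for Lbr, Tm7sf2 and Cyp46a1 also lay in entries that do not cover the GENCODE start. The GC box bound by Sp1 was searched as GGGCGG on both strands. It was found in 14 of 16 enzymes (87.5%) and 23 of 28 members, against 38.2% and 68.3% in the same sets. A match of letters is not a measured binding site. Stretches of 150 bases are shown that end just before the RefSeq or the GENCODE start, whichever lies further upstream (RefSeq for Hmgcs1, GENCODE for Acat2, Hsd17b7 and Insig1, and both for Ebp). They are given for Hmgcs1, the member with the element, for Acat2, the enzyme without a CCAAT box, for Ebp and Hsd17b7, whose values are given below, and for the feedback gene Insig1. Capitals mark the 3 motifs on either strand, so CCAAT can appear as ATTGG and GGGCGG as CCGCCC, and the motifs overlap nowhere in these stretches.
Hmgcs1 (chr13:119690201-119690350, plus strand): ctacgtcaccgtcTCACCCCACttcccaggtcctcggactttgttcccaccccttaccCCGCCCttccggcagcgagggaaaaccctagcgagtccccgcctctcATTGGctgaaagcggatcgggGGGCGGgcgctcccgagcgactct
Acat2 (chr17:12960748-12960897, minus strand): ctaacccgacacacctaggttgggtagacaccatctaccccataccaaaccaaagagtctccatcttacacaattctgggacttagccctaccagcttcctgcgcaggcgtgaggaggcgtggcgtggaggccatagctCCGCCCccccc
Hsd17b7 (chr1:169969242-169969391, minus strand): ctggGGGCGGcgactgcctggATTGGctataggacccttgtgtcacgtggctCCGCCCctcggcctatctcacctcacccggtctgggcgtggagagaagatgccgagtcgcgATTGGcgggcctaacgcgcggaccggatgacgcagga
Ebp (chrX:8193513-8193662, minus strand): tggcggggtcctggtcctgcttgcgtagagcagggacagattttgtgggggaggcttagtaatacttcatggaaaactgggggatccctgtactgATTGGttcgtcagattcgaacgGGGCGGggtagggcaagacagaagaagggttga
Insig1 (chr5:28071213-28071362, plus strand): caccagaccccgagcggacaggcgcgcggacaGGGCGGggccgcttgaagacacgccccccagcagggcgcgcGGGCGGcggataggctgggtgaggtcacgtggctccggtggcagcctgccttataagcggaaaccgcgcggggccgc
In these stretches Hmgcs1 holds all 3 motifs within 150 bases, and Hsd17b7 holds the CCAAT box at 2 places and the GC box at 2 places. Insig1 has a CCAAT box in its full entry but not within the stretch shown.

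The 34 members covered a wide range of levels. Apoe, which encodes apolipoprotein E, was highest with a mean of 495.5 FPKM over 12 libraries, above 99.8% of tested genes. The next were Hmgcs1 (HMG-CoA synthase, at the entry of the mevalonate pathway) at 75.4 FPKM and Cyp46a1 (the hydroxylase that neurons use to clear cholesterol) at 48.3 FPKM. Srebf2, which encodes the SREBP form that drives cholesterol genes, followed at 30.1 FPKM. Among the 19 enzymes Hmgcs1 was the highest and Lss (lanosterol synthase) the lowest at 2.50 FPKM, so steps of 1 pathway differed widely in transcript level. Nr1h3, which encodes the oxysterol receptor LXR-alpha, was the lowest member, while its relative Nr1h2 (LXR-beta) stood at 9.94 FPKM. The order of the levels was a description over all 12 libraries, and neighbours in it often overlapped between mice.

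**Figure D1:**
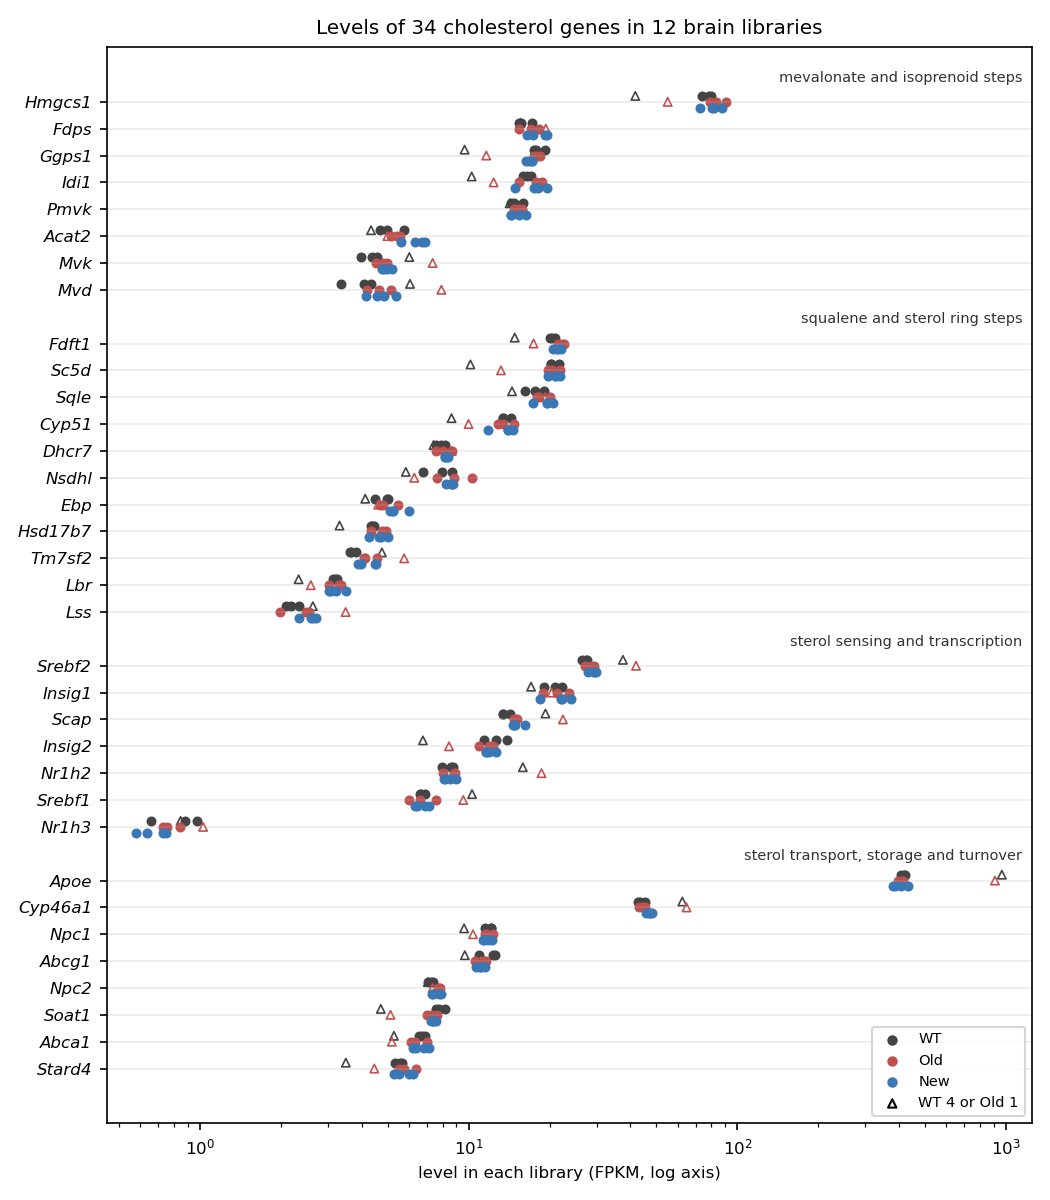
Level of each of the 34 members in each of the 12 libraries, as FPKM on a log axis, grouped by role. Apoe lies far to the right at 378.9 to 965.4 FPKM and Nr1h3 far to the left at 0.579 to 1.03 FPKM.

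In many members WT 4 and Old 1 departed from the other 10 libraries, in directions that went with the GC content of the transcript. Both lay above all other 10 libraries in 9 of 34 members and both lay below them in 13 of 34, against 19.9% and 40.3% of all tested genes. The 9 members that were higher had a median GC content of 58.5% and the 13 lower ones 44.2%. Apoe stood 2.30 times as high in these libraries as in the other 10, Nr1h2 2.04 times and Mvd (mevalonate diphosphate decarboxylase) 1.56 times. Sc5d, a desaturase of the last steps, stood at 0.56 times, and Hmgcs1 and Ggps1 (which makes the geranylgeranyl chain) at 0.60 times. The summed level of the 19 enzymes was 186.3 FPKM in WT 4 and 229.1 FPKM in Old 1, and ran from 257.8 to 292.5 FPKM in the other 10. Since 1 of these libraries is in WT and 1 in Old, while New has none, the counts below are given with and without them, and so are single differences that they moved strongly. The Y-linked transcript Ddx3y was present in WT 4 and Old 1 (6.51 and 8.22 FPKM) and also in Old 4 and New 1 (15.4 and 13.4 FPKM), and was at most 0.0242 FPKM in the other 8 libraries. It was thus present in 1 WT, 2 Old and 1 New library. A term in the fit for libraries that carry Ddx3y cannot change the New difference, because WT and New hold 1 such library each. The New median of the enzymes was 0.18 with and without it. In Old all 19 enzymes stayed positive with the term, with a median of 0.15 against 0.13 without it. As WT 4 and Old 1 are among the carriers, the term cannot separate sex from what set these libraries apart. The part of sex in the results was not tested.

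**Figure D2:**
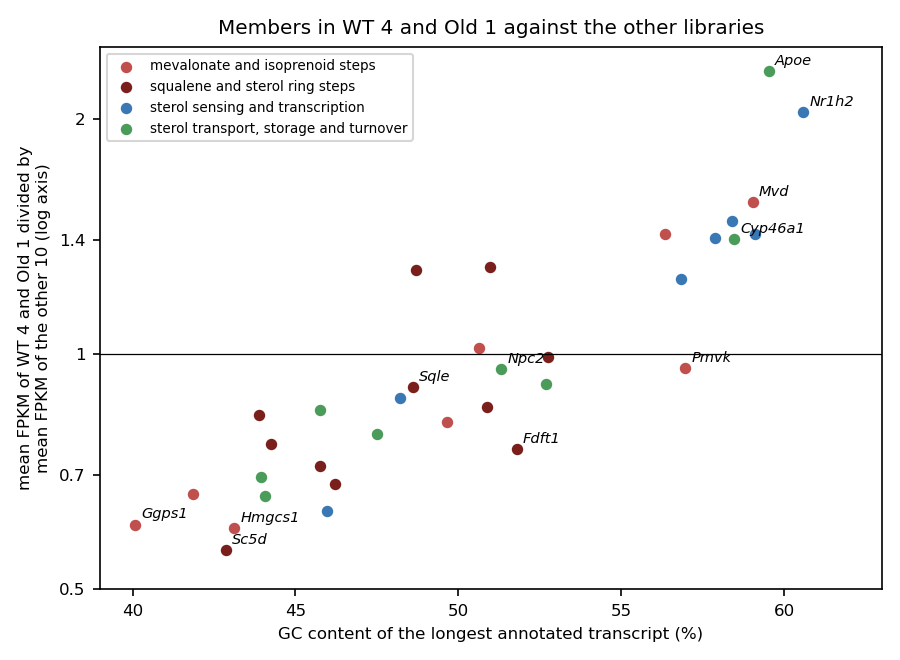
Mean FPKM of WT 4 and Old 1 divided by the mean of the other 10 libraries (log axis) against the GC content of the longest annotated transcript, for 34 members coloured by role. Members of low GC such as Ggps1 and Sc5d lie near 0.6 and members of high GC such as Apoe and Nr1h2 lie above 2.

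The first question was whether sterol genes differed between the Old strain and WT. No member passed limma's test at an adjusted p of 0.05 (0 of 34), where 4 of all 16203 tested genes did (0.0247%). All 19 enzymes had a positive difference from WT, with a median of 0.13 on the log2(FPKM + 0.1) scale, while 65.3% of all tested genes were positive and their median was 0.03. Of the 7 sensing genes 4 were positive (median 0.07), and of the 8 transport genes 4 were (median -0.0023). The largest enzyme differences were those of Mvd (0.28, SE 0.21) and Tm7sf2, a sterol reductase (0.21, SE 0.13), and neither passed.

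Without WT 4 and Old 1, 16 of 19 enzymes were positive in Old with a median of 0.07, while 49.1% of all tested genes were positive. Ggps1, Cyp51 (lanosterol demethylase) and Sc5d were then negative. Of the sensing genes 4 of 7 were positive (median 0.02), and of the transport genes 3 of 8 (median -0.02). No member passed without these libraries either, where 0.0494% of tested genes did. At an unadjusted p under 0.05 there were 5 members higher and 1 lower, with 3.12% and 2.94% of all tested genes at that level. The 5 were Mvk, Fdft1, Tm7sf2, Scap and Npc2, and the lower one was Soat1. Leaving out WT 4 alone left 13 of 19 enzymes positive in Old with a median of 0.05. In that setting 43.9% of all tested genes were positive, with a median of -0.03. In bulk tissue, fewer cells of a type and less RNA per cell cannot be told apart.

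The second question was the same for the New strain, which shares its WT libraries with the first comparison. No member passed (0 of 34), where 1 of 16203 tested genes did (0.00617%). All 19 enzymes were positive with a median of 0.18, against 65.5% of all tested genes and a median of 0.06. Of the sensing genes 3 of 7 were positive (median -0.02), and of the transport genes 5 of 8 (median 0.06). An unadjusted p under 0.05 was reached by 2 members, Acat2 and Ebp, both higher, where 1.64% of all tested genes were higher at that level. In Old against WT no member reached it, with 1.2% of tested genes higher and 0.463% lower at that level.

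Without WT 4 and Old 1, 17 of 19 enzymes were positive in New with a median of 0.08, while 47.8% of all tested genes were positive. Ggps1 and Cyp51 were then negative. Leaving out WT 4 alone must give the same count and median, because Old 1 does not enter the New difference. The median of the transport genes turned to -0.02, with 3 of 8 positive, and that of the sensing genes to 0.0011, with 4 of 7 positive. At an unadjusted p under 0.05 there were 7 members higher and 1 lower (Ggps1), with 4.91% and 5.85% of all tested genes at that level, no member passed, and the lowest adjusted p of a member was 0.346. Mvk, the mevalonate kinase, then differed by 0.20 (SE 0.06), Scap by 0.14 (SE 0.04) and Cyp46a1 by 0.10 (SE 0.03). These 3 did not pass over all genes (limma, adjusted p = 0.351, 0.346 and 0.346).

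**Figure D3:**
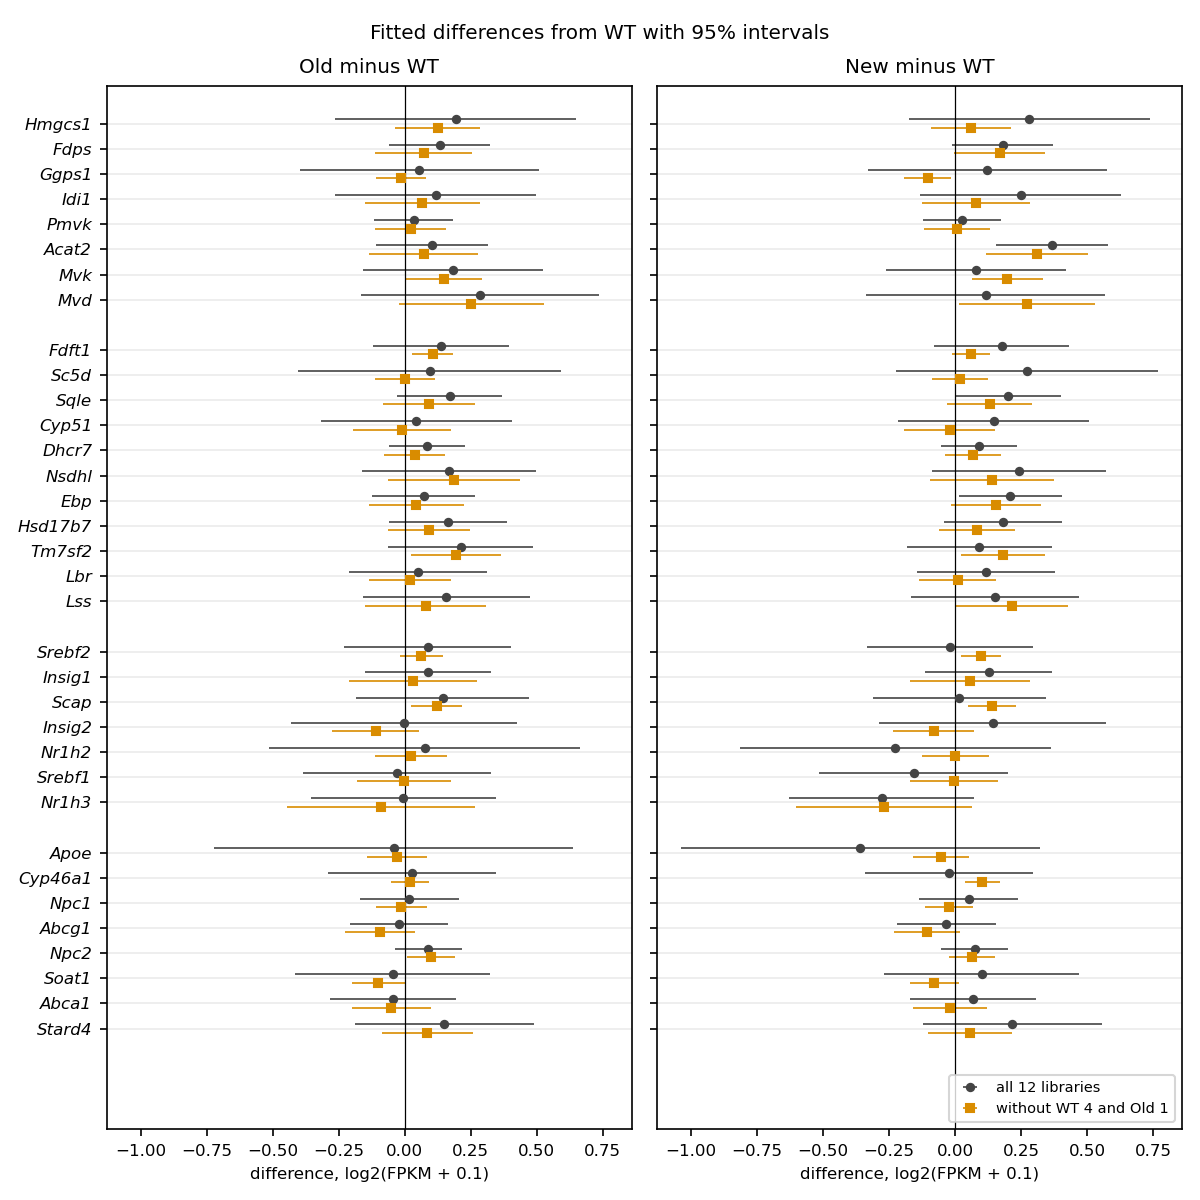
Fitted difference from WT of each member on the log2(FPKM + 0.1) scale with its 95% interval, for Old (left) and New (right), from all 12 libraries (circles) and without WT 4 and Old 1 (squares). In all 12 libraries the 19 enzymes in the 2 upper blocks lie to the right of 0 in both panels. Only the intervals of Acat2 and Ebp in New exclude 0 there.

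Genes of the mevalonate and isoprenoid steps were examined first. Acat2 (chromosome 17, 12942890 to 12960747, minus strand, mm10) encodes the cytosolic thiolase that joins 2 acetyl-CoA molecules at the start of the pathway. Its levels were 4.67, 4.95, 5.73 and 4.33 FPKM in WT 1 to 4, 4.98, 5.42, 5.55 and 5.12 in Old 1 to 4 and 6.85, 6.34, 6.68 and 5.58 in New 1 to 4. Of the New libraries 3 lay above all WT libraries and New 4 lay just under WT 3, and all 4 Old libraries lay below all 4 New libraries. New exceeded WT by 0.37 (SE 0.10, 95% interval 0.16 to 0.58) on the log2 scale, a 1.29-fold difference (limma, adjusted p = 0.965). The exact two-sided permutation p was 0.0571, where 4 against 4 mice cannot go below 0.0286. Acat2 ranked 13 of 16203 genes by unadjusted p in this comparison. Old exceeded WT by 0.10 (SE 0.10; limma, adjusted p = 1), with overlapping groups. Without WT 4 and Old 1 the New difference was 0.31 (SE 0.09; limma, adjusted p = 0.346).

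Fdps makes farnesyl diphosphate, the branch point from which both sterols and protein prenyl groups derive. Its levels were 15.4, 15.7, 17.2 and 15.6 FPKM in WT, 19.4, 17.1, 18.3 and 15.4 in Old and 17.3, 19.2, 19.5 and 16.5 in New. WT 1, WT 2 and WT 4 lay below every New library, while WT 3 lay above New 4. The differences were 0.13 (SE 0.09) in Old and 0.18 (SE 0.09) in New, with an exact permutation p of 0.0571 for New. They were 0.07 and 0.17 without WT 4 and Old 1.

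Hmgcs1 stood at 74.2, 78.3, 79.5 and 41.7 FPKM in WT, 55.1, 78.8, 90.8 and 83.6 in Old and 81.9, 88.1, 72.8 and 80.4 in New. The lowest of all 12 were WT 4 and Old 1, and the other libraries of the 3 groups overlapped. The New difference was 0.28 (SE 0.21) with all libraries and 0.06 (SE 0.07) without these libraries. In Old it was 0.19 (SE 0.21) with all libraries and 0.12 (SE 0.07) without both, and it turned to -0.03 when WT 4 alone was left out. The other 5 genes of these steps, Mvk, Pmvk (phosphomevalonate kinase), Mvd, Idi1 (isopentenyl diphosphate isomerase) and Ggps1, differed from WT by 0.03 to 0.28 in Old and by 0.03 to 0.25 in New, and without WT 4 and Old 1 by -0.02 to 0.25 and by -0.10 to 0.27.

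Among the enzymes of squalene and sterol ring formation, Sqle makes squalene epoxide and is known as a controlled step of the pathway. Its levels were 17.6, 16.2, 19.0 and 14.5 FPKM in WT, 19.3, 17.9, 20.1 and 18.2 in Old and 19.6, 19.7, 17.3 and 20.5 in New. WT 3 reached the range of both strains and the other WT libraries lay below all Old libraries. The difference was 0.17 (SE 0.09) in Old, where Sqle had the lowest unadjusted p of the members, and 0.20 (SE 0.09) in New (limma, adjusted p = 1 and 0.965). Exact permutation gave p = 0.114 and 0.0857. The differences became 0.09 (SE 0.08) and 0.13 (SE 0.07) without WT 4 and Old 1.

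Ebp (chromosome X, 8185329 to 8193512, minus strand) encodes the sterol isomerase that shifts a double bond in the ring. It stood at 4.50, 4.98, 4.99 and 4.12 FPKM in WT, 4.60, 4.69, 5.44 and 4.81 in Old and 5.24, 5.99, 5.08 and 5.24 in New. All 4 New libraries lay above all 4 WT libraries, the one member for which knockout and WT libraries did not overlap, against 1.94% of tested genes that were higher in this way and 0.66% that were lower. In Old against WT no member was separate, where 0.796% of tested genes were higher and 0.302% lower without overlap. New exceeded WT by 0.21 (SE 0.09; limma, adjusted p = 0.965), a 1.16-fold difference, with an exact permutation p of 0.0286. Old differed by 0.07 (SE 0.09). These became 0.15 in New and 0.04 in Old without WT 4 and Old 1.

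Hsd17b7 encodes a reductase that acts in removing methyl groups from the ring. Its levels were 4.44, 4.35, 4.34 and 3.31 FPKM in WT, 4.33, 4.33, 4.76 and 4.94 in Old and 5.01, 4.71, 4.26 and 4.62 in New. WT 4 lay far below the other WT libraries, which lay close together and overlapped with both strains. The difference was 0.16 (SE 0.10) in Old and 0.18 (SE 0.10) in New, and 0.09 and 0.08 without WT 4 and Old 1.

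Fdft1, squalene synthase, commits farnesyl diphosphate to sterols. It stood at 21.0, 20.1, 20.5 and 14.8 FPKM in WT, 17.4, 22.2, 22.6 and 21.5 in Old and 21.5, 22.1, 21.3 and 20.6 in New. WT 4 and Old 1 were again lowest, and Old 2, Old 3 and Old 4 lay above all WT libraries. The Old difference was 0.14 (SE 0.12) with all libraries and 0.11 (SE 0.03) without WT 4 and Old 1 (limma, adjusted p = 0.741). In New these values were 0.18 (SE 0.12) and 0.06 (SE 0.03). The exons of Fdft1 share 774 bases with those of Ctsb on the opposite strand (53.8 FPKM), and the library kit does not mark strand, so reads there cannot be assigned to either gene with certainty. The other 7 enzymes, Lss, Cyp51, Tm7sf2, Lbr (a sterol reductase that is also a protein of the nuclear membrane), Nsdhl (a dehydrogenase of methyl group removal), Sc5d and Dhcr7 (the reductase of the last step), differed by 0.04 to 0.21 in Old and by 0.09 to 0.27 in New, and without WT 4 and Old 1 by -0.01 to 0.19 and by -0.02 to 0.21. Exons of Cyp51 share 166 bases with Akap9, and those of Ggps1 share 257 bases with Arid4b, on opposite strands. Scap likewise shares 985 exon bases with 5830462I19Rik, Hmgcs1 557 with Gm48342, Npc1 511 with Rmc1 and Lbr 440 with Dnah14. Idi1, Lss and Srebf1 hold smaller overlaps of this kind. On the same strand, Fdps shares 1124 exon bases with the annotated gene Gm43738 and Tm7sf2 shares 532 with Vps51, so their values carry the same uncertainty.

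**Figure D4:**
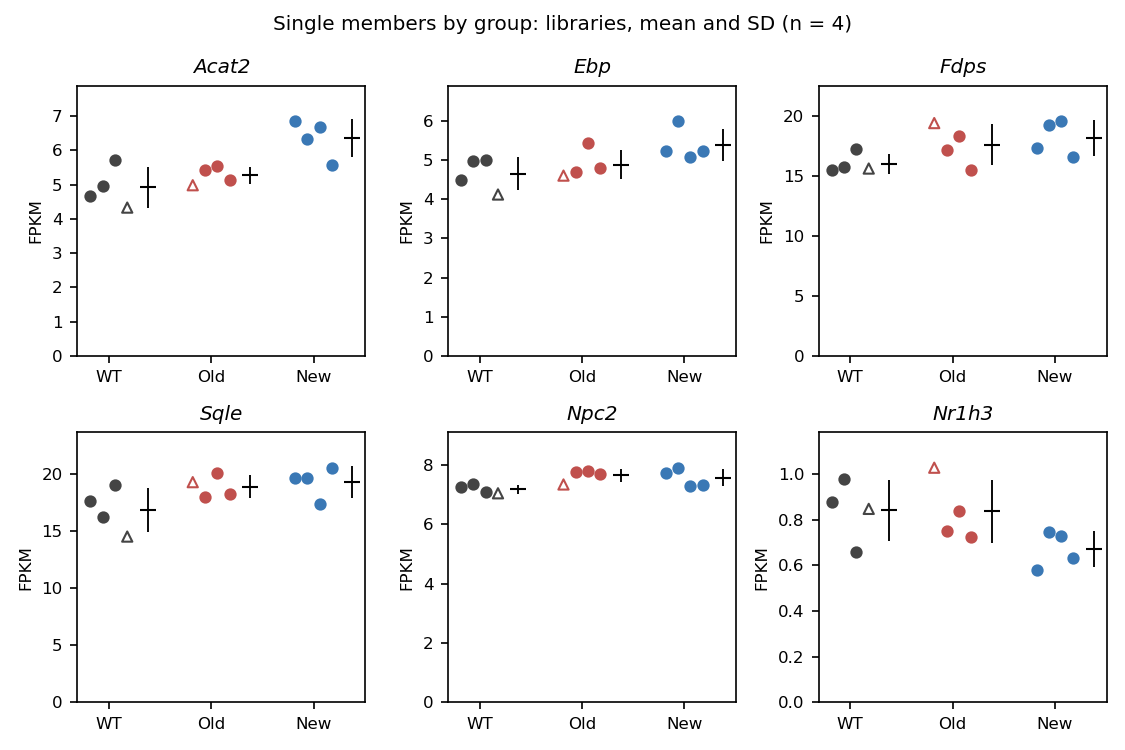
FPKM of 6 members in each library by group, with mean and SD (n = 4) at the right of each group and open triangles for WT 4 and Old 1. The New libraries lie above all WT libraries for Ebp and above all Old libraries for Acat2, and the groups overlap in the other panels.

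The sensing and transcription genes lay on both sides of 0. Srebf2 stood at 27.5, 27.4, 26.3 and 37.5 FPKM in WT, 41.97, 29.2, 28.5 and 27.1 in Old and 27.9, 29.2, 29.7 and 29.2 in New. WT 4 and Old 1 were the highest, and the other 10 libraries ran from 26.3 to 29.7 FPKM. The New difference was -0.02 (SE 0.14) with all libraries and turned to 0.10 (SE 0.03) without WT 4 and Old 1, and neither value passed (limma, adjusted p = 0.988 and 0.384).

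Srebf1, whose products mainly drive fatty acid genes, stood at 6.87, 6.63, 6.59 and 10.3 FPKM in WT, 9.55, 6.56, 6.01 and 7.54 in Old and 6.42, 6.33, 6.90 and 7.10 in New. Leaving WT 4 and Old 1 aside, the groups overlapped between 6.01 and 7.54 FPKM. The differences were -0.03 (SE 0.16) in Old and -0.16 (SE 0.16) in New, and without WT 4 and Old 1 they were -0.0037 and -0.0032.

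Insig1, a target of SREBP that holds Scap in the endoplasmic reticulum, stood at 22.2, 19.1, 21.0 and 17.1 FPKM in WT, 20.4, 18.9, 21.3 and 23.7 in Old and 24.1, 22.2, 18.5 and 21.98 in New. The 3 groups overlapped. The differences were 0.09 (SE 0.11) in Old and 0.13 (SE 0.11) in New, and without WT 4 and Old 1 they were 0.03 and 0.06.

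Nr1h3 stood at 0.878, 0.978, 0.656 and 0.847 FPKM in WT, 1.03, 0.751, 0.839 and 0.725 in Old and 0.579, 0.746, 0.729 and 0.633 in New. New 1 and New 4 lay below all WT libraries, and New 2 and New 3 lay above WT 3. The New difference was -0.28 (SE 0.16, 95% interval -0.63 to 0.07; limma, adjusted p = 0.965) and the exact permutation p was 0.0857. Scap, Insig2 (a relative of Insig1) and Nr1h2 differed from WT by -0.0037 to 0.14 in Old and by -0.23 to 0.14 in New, and without WT 4 and Old 1 by -0.11 to 0.12 and by -0.08 to 0.14.

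Among transport genes, Npc2, a lysosomal protein that hands cholesterol to the membrane protein Npc1, had the tightest WT group of the 34 members, with a coefficient of variation of 2.11%. It stood at 7.24, 7.38, 7.08 and 7.05 FPKM in WT, 7.35, 7.76, 7.81 and 7.70 in Old and 7.73, 7.91, 7.31 and 7.34 in New. Old 2, Old 3 and Old 4 lay above all WT libraries, and Old 1 lay just under WT 2. The difference was 0.09 (SE 0.06) in Old and 0.07 (SE 0.06) in New, with exact permutation p of 0.0571 and 0.0857.

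Stard4, a cytosolic sterol carrier, stood at 5.57, 5.30, 5.67 and 3.49 FPKM in WT, 4.45, 5.49, 5.76 and 6.35 in Old and 6.02, 5.26, 6.22 and 5.49 in New. Again WT 4 and Old 1 were lowest, and the other libraries overlapped. The differences were 0.15 (SE 0.16) in Old, which turned to -0.01 without WT 4, and 0.22 (SE 0.16) in New. Both became smaller without WT 4 and Old 1, at 0.09 (SE 0.08) and 0.06 (SE 0.07).

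Apoe stood at 422, 418, 407 and 965 FPKM in WT, 910, 395, 415 and 412 in Old and 387, 406, 379 and 430 in New. WT 4 and Old 1 were far above the rest and all other libraries lay between 378.9 and 430.1 FPKM. The New difference was -0.36 (SE 0.31) with all libraries and -0.05 (SE 0.05) without WT 4 and Old 1. Abca1 and Abcg1 (exporters that load sterol onto particles), Soat1 (which esterifies cholesterol for storage), Npc1 and Cyp46a1 differed by -0.05 to 0.03 in Old and by -0.03 to 0.10 in New, and without WT 4 and Old 1 by -0.10 to 0.02 and by -0.11 to 0.10.

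The third comparison set Old directly against New. No member passed (0 of 34), where 2 of 16203 tested genes did (0.0123%). Of the members 14 of 34 were higher in Old, against 42.2% of all tested genes, and the median difference was -0.03. Acat2 was the one member whose libraries did not overlap between strains, against 1.06% of tested genes that were lower in Old in this way and 0.728% that were higher. It was also the one member with an unadjusted p under 0.05, a level reached by 0.506% of tested genes as lower and 0.63% as higher. It differed by -0.26 (SE 0.10, 95% interval -0.48 to -0.05; limma, adjusted p = 0.985), with an exact permutation p of 0.0286. Nr1h3 was higher in all 4 Old libraries than the New median and differed by 0.27 (SE 0.16; limma, adjusted p = 0.985), or by 0.18 (SE 0.15) without WT 4 and Old 1. In that setting 16 of 34 members were higher in Old, against 52.7% of all tested genes, and none passed, against 0.037%. At an unadjusted p under 0.05 there were then 0 members higher and 2 lower, Acat2 and Cyp46a1, against 2.62% and 2.2% of all tested genes.

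The mean of both strains was also set against WT. No member passed (0 of 34), where 2 of 16203 tested genes did (0.0123%). All 19 enzymes were positive (median 0.16), against 67.2% of all tested genes (median 0.04), and 17 of 19 were (median 0.09) without WT 4 and Old 1, against 48.5%. Leaving out WT 4 alone left 15 of 19 positive (median 0.07), against 44.9% of all tested genes (median -0.02). Acat2 differed by 0.24 (SE 0.08) and Sqle by 0.18 (SE 0.08; limma, adjusted p = 0.9998 for both). They were the 2 members with an unadjusted p under 0.05, where 1.7% of tested genes were higher and 0.518% lower at that level. All 8 knockout libraries lay above the WT median in both, and also in Mvk, Tm7sf2, Scap and Npc2. In Abcg1 and Soat1 all 8 lay below the WT median. The share of all tested genes with either trait was not computed. No member had all 8 knockout libraries on one side of all WT libraries, while 0.29% of tested genes were higher and 0.0802% lower in this way. Without WT 4 and Old 1 no member passed, where 0.0185% of tested genes did, and 8 members were higher and 1 lower at an unadjusted p under 0.05, against 4.36% and 4.76%. Acat2 was among the 8 (0.19, SE 0.08) and Sqle was not (0.11, SE 0.07).

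Markers of other cell types were counted beside the enzymes, and none passed. Of 12 listed oligodendrocyte and myelin markers 11 were positive in Old against WT (median 0.16) and 12 in New (median 0.24), where 65.3% and 65.5% of all tested genes were positive. Their summed level ran from 1560 to 1741 FPKM in WT, 1750 to 1908 in Old and 1808 to 1989 in New, so that the WT libraries lay below all others. Without WT 4 and Old 1, 10 of 12 were positive in Old (median 0.09) and 11 of 12 in New (median 0.19), where 49.1% and 47.8% of all tested genes were. Astrocyte markers (10 of 10 measured) summed to 485.7 to 715.3 FPKM in WT, 540.0 to 718.6 in Old and 687.1 to 695.1 in New, with 8 of 10 positive in Old and 9 in New, or 3 and 7 without WT 4 and Old 1. Neuron markers (10 of 10 measured) summed to 1766 to 2245, 1945 to 2284 and 2124 to 2234 FPKM in the same order. Of these, 7 of 10 were positive in each strain, or 7 and 4 without WT 4 and Old 1. Oligodendrocyte precursor markers were positive in 4 of 5 in Old and 3 of 5 in New. Without WT 4 and Old 1 they were in 5 of 5 in each strain (medians 0.08 and 0.07). Microglia markers were positive in 5 of 6 in each strain, or 5 and 6 of 6 without these libraries (medians 0.08 and 0.12). In that setting endothelial markers were positive in 3 of 7 in each strain, and cortical projection neuron markers in 2 and 1 of 6. Striatal markers were in 2 and 3 of 5, and ependymal and choroid plexus markers in 3 and 2 of 5. Blood markers were in 1 and 0 of 3, and markers of cerebellum and olfactory bulb in 3 and 2 of 3. The part of these cell types in the enzyme differences was not tested.

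**Figure D5:**
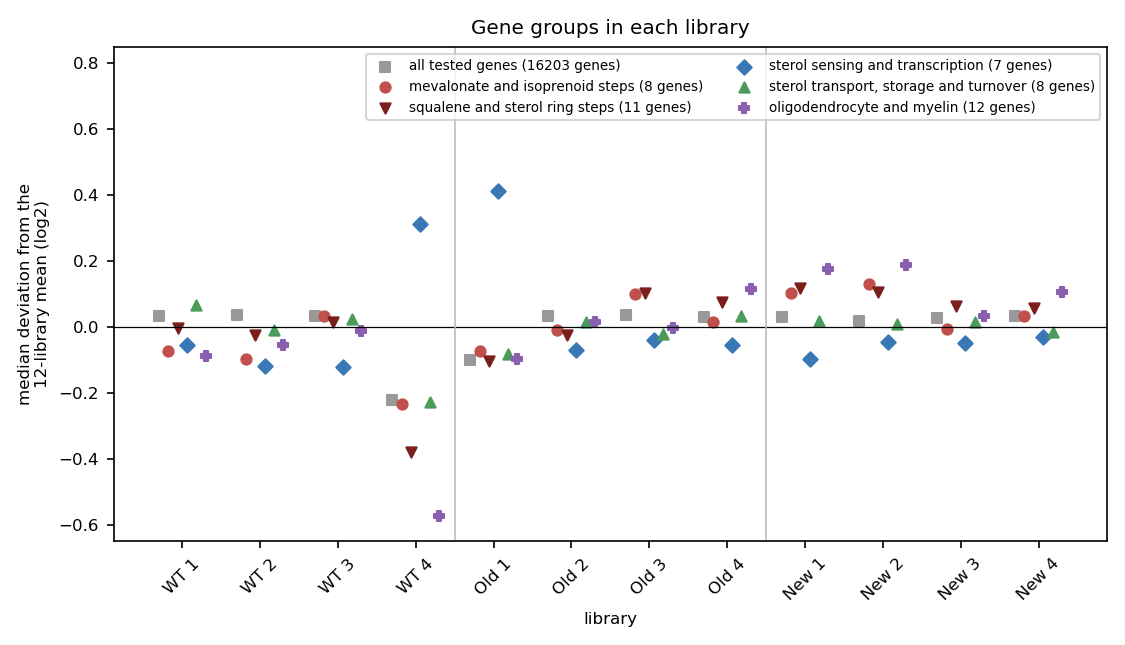
Median deviation of each gene group from its 12-library mean, on the log2 scale, in each library, with vertical lines between WT, Old and New. The squalene and sterol ring enzymes lie at -0.38 in WT 4 and between 0.06 and 0.12 in the 4 New libraries, while the sensing genes lie at 0.31 in WT 4 and 0.41 in Old 1.

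Neighbouring pathways gave no called gene in any of the comparisons, and each of their positive counts was lower when WT 4 and Old 1 were left out. Of 11 tested genes of SREBP processing and sterol-linked degradation, 9 were positive in Old and 9 in New (medians 0.06 and 0.10), or 8 and 6 without these libraries (medians 0.02 and 0.0063). Rnf145, a ubiquitin ligase of the endoplasmic reticulum linked to sterol sensing, stood at 18.2 ± 0.787 FPKM in WT, 19.5 ± 0.329 in Old and 19.8 ± 0.975 in New (SD, n = 4 each, all libraries). Of 16 genes that use isoprenoids, 12 and 13 were positive (medians 0.03 and 0.11), or 7 and 6 without these libraries (medians -0.02 and -0.0081). Fntb, a subunit of protein farnesyltransferase in this list, stood at 5.31 ± 0.261, 5.76 ± 0.426 and 5.97 ± 0.152 FPKM in WT, Old and New.

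Of 15 fatty acid synthesis genes 10 were positive in Old and 13 in New (median 0.04 in each), or 4 and 7 without WT 4 and Old 1 (median -0.02 in each). Acaca, acetyl-CoA carboxylase, stood at 12.2 ± 1.30, 12.9 ± 0.950 and 13.3 ± 0.243 FPKM in WT, Old and New. Of 20 other sterol carrier and lipoprotein genes 16 and 13 were positive (medians 0.03 and 0.06), or 10 and 11 without these libraries (medians 0.0027 and 0.0022). Of 4 tested genes of other sterol hydroxylation all 4 were positive in each strain (medians 0.11 and 0.15), or 2 in each without these libraries (medians -0.03 and 0.07). The background was 65.3% in Old and 65.5% in New with all libraries, and 49.1% and 47.8% without WT 4 and Old 1.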

How the data were processed

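Brain polyA RNA from 12 mice was sequenced in paired-end reads per the labels' protocols, from unstranded TruSeq mRNA v2 libraries; a label on each sample calls the libraries depleted of ribosomal RNA instead. Gene-level FPKM values were deposited by the authors in 1 table. The tools named are FastQC, Bowtie2 2.1.0, TopHat2 2.0.9, Cufflinks and Cuffdiff 2.1.1 on mm10, per the submitters' processing notes. Not given in the sources used here are annotation, scaling between libraries, strand setting, sex of the mice and lanes. Cufflinks estimates how reads divide between transcripts, so overlapping genes are uncertain. Each library's FPKM summed to between 385096 and 527104. Depth is unknown and no counting interval was computed.

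Samples were grouped by their titles. WT numbers come from the titles, and Old and New libraries were numbered in accession order. Genes with a mean of at least 0.5 FPKM (16203) were fitted together over the 3 groups with limma 3.58.1 (trended empirical Bayes, R 4.3.3) on log2(FPKM + 0.1), a scale that understates changes of low genes. P-values were adjusted by Benjamini-Hochberg over all tested genes with a threshold of 0.05, and they measure only the spread between these mice. Exact permutation tests were two-sided, over 70 assignments of 4 against 4. Lists were described by counts and medians, without a test. The members and lists were chosen with earlier results of these data known. Values per library are given, in each role group, for the 3 members with the smallest unadjusted p in the mean of both strains against WT and for the member with the highest level. In the other lists up to 2 genes with the smallest such p were named, of which some are reported. Other members are given by ranges or were chosen after their values were seen. The procedure was also run on simulated data drawn from the spread without WT 4 and Old 1. Those data held neither the departures of these libraries nor changes as small as those of the members. They do not show how the fit performs on the members. GC content came from the longest GENCODE M21 transcript, known for 34 of 34 members, and promoter sequences from RefSeq. In all 23 alternatives were run, which changed the pseudocount, the filter, the scaling, the fit or the libraries.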

Additional observations from a re-analysis of the deposited data

Results flagged for a closer look

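Of 102 pairs of a member and a group, 22 held a library whose gap to its nearest neighbour exceeded Dixon's 95% critical value for 4 samples, in 17 members. WT 4 was the library in 14 of these pairs, Old 1 in 7 and WT 3 in 1. Chance gives about 5% of groups, but the rule was not run over all tested genes. The count therefore shows no excess particular to these members. WT 4 and Old 1 both lay above the other 10 libraries in 19.9% of all tested genes and both below them in 40.3%.

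WT 4 lay below the other WT libraries in Hmgcs1 (41.7 FPKM, nearest 74.2), Idi1 (10.3 FPKM, nearest 15.9), Fdft1 (14.8 FPKM, nearest 20.1), Lbr (2.33 FPKM, nearest 3.12), Hsd17b7 (3.31 FPKM, nearest 4.34), Sc5d (10.2 FPKM, nearest 20.2) and Stard4 (3.49 FPKM, nearest 5.30). These are mostly enzymes, with the sterol carrier Stard4 beside them. WT 4 lay above the other WT libraries in Tm7sf2 (4.75 FPKM, nearest 3.81), Srebf1 (10.3 FPKM, nearest 6.87), Srebf2 (37.5 FPKM, nearest 27.5), Scap (19.3 FPKM, nearest 14.3), Nr1h2 (15.9 FPKM, nearest 8.74), Apoe (965 FPKM, nearest 422) and Cyp46a1 (62.4 FPKM, nearest 45.2). These are mostly genes of sterol sensing, with the reductase Tm7sf2, the apolipoprotein gene and the sterol hydroxylase beside them. The split by role also went with transcript GC. It ran from 41.9% (Idi1) to 51.8% (Fdft1) in the lower genes and from 51.0% (Tm7sf2) to 60.6% (Nr1h2) in the higher ones. Over all tested genes the median deviation in WT 4 was 0.63 at GC of 60% and over and -0.71 at GC under 40%.

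Old 1 lay above the other Old libraries in Mvk (7.35 FPKM, nearest 4.97), Srebf2 (41.97 FPKM, nearest 29.2), Scap (22.4 FPKM, nearest 15.1), Nr1h2 (18.7 FPKM, nearest 8.91), Apoe (910 FPKM, nearest 415) and Cyp46a1 (64.7 FPKM, nearest 45.2). It lay below them in Ggps1 (11.6 FPKM, nearest 17.6). WT 3 lay above the other WT libraries in Fdps (17.2 FPKM, nearest 15.7).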

How the results depend on the processing

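No member passed in any of the 4 comparisons under any of the 23 alternatives, and the lowest adjusted p of a member was 0.204 (limma with library weights, Acat2 in New). The number of enzymes with a positive difference, a count chosen after seeing the data, ran from 13 to 19 in Old, from 17 to 19 in New and from 15 to 19 for their mean. The lowest of these in Old and in the mean were without WT 4. Leaving out 1 library at a time, the median of the mevalonate genes ran from 0.029 to 0.17 in Old and from 0.080 to 0.19 for the mean of both strains, the lowest in each case without WT 4. Of the 14 members given library by library, 6 changed sign in Old in these settings: Nr1h3 (-0.11 to 0.065), Hmgcs1 (-0.029 to 0.35), Srebf1 (-0.16 to 0.12), Stard4 (-0.011 to 0.25), Apoe (-0.33 to 0.26) and Srebf2 (-0.055 to 0.20). Over all enzymes, 6 of 19 turned negative in Old without WT 4, where 43.9% of all tested genes were positive. The New difference of Srebf2 ran from -0.072 to 0.098, and was 0.036 with the GC trend removed, 0.078 with library weights and 0.098 without WT 4 and Old 1. A term for libraries with Ddx3y moved the Old differences of Apoe to -0.19, Srebf1 to -0.11 and Srebf2 to 0.03. The cause was not tested. The number of all tested genes called ran from 2 to 8 in Old, 1 to 2 in New, 1 to 14 in Old against New and 1 to 5 in the mean. No paired analysis was possible because the titles of the Old and New libraries carry no replicate numbers. Depth is unknown, so precision rests on 4 mice per group, and the 95% interval of the lowest member, Nr1h3, ran from -0.63 to 0.07 in New.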
